A study of Mus musculus with 3 samples.

Results

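The liver X receptors (LXR) are nuclear receptors that bind oxysterols, the oxidised forms of cholesterol. Together with a retinoid X receptor they switch on genes that move cholesterol out of the cell, limit its uptake and remodel membrane lipids. In macrophages the same receptors are known for their exchange with toll-like receptor signalling, and Ch25h, which makes an oxysterol, is known as an interferon-induced gene. Described here are 9 genes of this system, taken by their gene name on the arrays: the enzymes Ch25h and Cyp27a1, the receptors Nr1h2 and Nr1h3, and the cholesterol exporters Abca1 and Abcg1. The others are the lipoprotein component Apoe, the ubiquitin ligase Mylip and the phospholipid enzyme Lpcat3. They are 9 of 36870 gene names on the array and are read by 15 of 56605 probes.

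The study asked how lactobacilli from fresh tea leaves alter the macrophage response to lipopolysaccharide (LPS), a glycolipid of Gram-negative bacteria that is sensed by TLR4. The 3 conditions measured were of RAW264.7 cells, a mouse macrophage line: LPS for 3 h, Lactiplantibacillus plantarum LOC1 before LPS (LOC1 + LPS), and L. plantarum LOC3 before LPS (LOC3 + LPS). All 3 therefore share the LPS challenge, for which the methods give 50 ng/mL and the results text gives 100 ng/mL. The lactobacilli were given for 12 h by the series description and for 24 h by the methods. Each condition is 1 array of 1 cell line, so no SD and no test between conditions can be given, and a value that does not pass a threshold does not show that conditions act alike. Both strain comparisons use the same LPS array, and in bulk RNA fewer cells with a transcript and less transcript per cell cannot be told apart.

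The arrays lay on 1 slide and were scanned together. Their 75th percentiles of intensity were 367.3 for LPS, 332.1 for LOC1 and 333.8 for LOC3. Between 47.8% and 51.9% of probes were well above background, and 0 spots were saturated. Of the macrophage markers, 8 of 8 were well above background on all 3 arrays, with a summed intensity of 402508 to 498527. The same held for 4 of 4 fibroblast markers at 125 to 207 and for 3 of 4 T cell markers at 1217 to 1362, Cd8a being detected on none. No epithelial marker of 4 (16.9 to 32.2, with Krt8, Krt18 and Cdh1 detected on none) was well above background on every array. The part of these other markers in the results was not tested.

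Of the 9 genes, Abcg1 alone rose at least 2-fold, and it did so with both strains, by 2.96-fold with LOC1 and 2.64-fold with LOC3 relative to LPS alone. Abca1, the other exporter, lay on the opposite side at 1.58-fold and 1.57-fold below LPS. Mylip and Cyp27a1 were 1.80-fold and 1.66-fold above LPS with LOC1. Between LOC1 and LOC3 none of the 9 genes differed by 2-fold.

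Probes of Abca1, Mylip and Cyp27a1 are shown by their first 30 of 60 bases. Positions are those of mm9, given in the file headers. The headers do not say which exon or untranslated part a probe lies in.

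Abca1, brighter probe, chr4:53043944-53044003, minus strand: gttgcatccctttttgtagaacatttatat
Abca1, dimmer probe, chr4:53048405-53049145, minus strand: tctgaaaaacaggtttggagatggttatac
Mylip, chr13:45506979-45507038, plus strand: tgtttccatattctaagttttcacccccac
Cyp27a1, chr1:74782203-74782262, plus strand: tcagatctgttgcaatcatgttccagaact

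The position of the dimmer Abca1 probe spans 741 bases although the probe itself is 60 bases long, so its sequence is split over more than 1 block of the genome. The other probes shown each lie in 1 block of 60 bases.

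LXR and its retinoid partner bind a direct repeat of AGGTCA with a gap of 4 bases, and Abca1 is a textbook target with such an element close to its start. In the RefSeq promoter windows (GRCm38.p6, 250 bases before to 50 after the start), 8 of the 9 genes were found, with 11 windows, and Abcg1 was not among them. The pattern of AGGTCA, any 4 bases and AGGTCA again was searched on both strands with up to 3 mismatches over its 12 fixed letters. It matched in 1 of the 11 windows, that of Abca1, against 21.9% of all 32851 windows. The match is a description of these letters and not of binding. The 150 bases before the Abca1 start are shown 5′ to 3′ along the gene, with the match in capitals.

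Abca1, chr4:53159896-53160045, minus strand: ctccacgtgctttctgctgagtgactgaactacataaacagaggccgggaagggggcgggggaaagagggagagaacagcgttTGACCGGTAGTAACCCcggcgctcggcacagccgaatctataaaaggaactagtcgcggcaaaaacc

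The match spans positions -67 to -52 from the start and reads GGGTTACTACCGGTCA on the opposite strand, where 9 of the 12 letters are those of the pattern.

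Values are given as the signal intensity of a probe on each array, in arbitrary units, and as the log2 difference between arrays after the 75th percentile of each array was subtracted. A gene is represented by its brightest probe, and intensities of different probes are not comparable. Repeat spots of the same probe gave a technical SD of a log2 difference of 0.0619 for bright probes and 0.310 for dim ones. It covers spot noise only and not the spread between cultures.

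**Figure D1:**
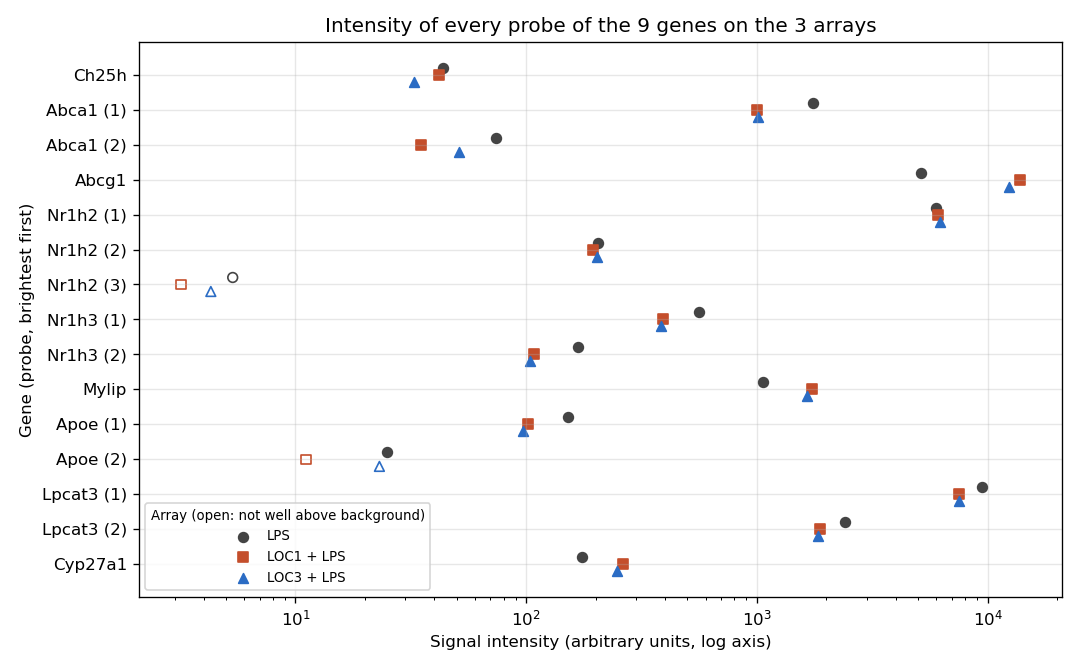
Signal intensity (arbitrary units, log axis) of the 15 probes of the 9 genes on the arrays of LPS, LOC1 + LPS and LOC3 + LPS, with each gene's probes numbered from the brightest. Open symbols were not well above background. The Abcg1 points with both strains lie to the right of LPS at 13827 and 12364 against 5162, and those of both Abca1 probes lie to the left.

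Among the exporters, Abcg1 encodes a transporter that passes cholesterol to high-density lipoprotein. Its only probe gave intensities of 5162 on the LPS array, 13827 for LOC1 and 12364 for LOC3. Both strain arrays were above the LPS array, at a log2 difference of 1.57 with LOC1 and 1.40 with LOC3. In the comparison of LOC1 with LPS 196 of 20018 genes stood higher than Abcg1, and in that of LOC3 with LPS 333 of 19789. Abcg1 was the only 1 of the 9 genes past 2-fold in either comparison. Of all genes, 2.71% passed 2-fold on the higher side with LOC1, 3.5% on the lower side and 6.21% in total, and with LOC3 3.19%, 2.92% and 6.11%. Against such a background a count of 1 in 9 genes says little about the 9 as a group. The split of all genes was 543 higher and 701 lower with LOC1, and it turned to 890 and 465 when arrays were scaled to their medians. LOC1 was above LOC3 by 0.17, the only 1 of the 9 differences between strains beyond 2 technical SDs, where 20.2% of all genes were.

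Abca1 encodes the transporter that loads cholesterol onto apolipoprotein A-I. Its brighter probe read 1748 with LPS, 999 with LOC1 and 1011 with LOC3. Both strain arrays lay below LPS and close to each other, with log2 differences of -0.66 and -0.65 and a difference between strains of -0.01. The dimmer probe, which reads another part of the transcript, was at 74.2, 35.0 and 51.2. It lay on the same side of LPS, by -0.94 with LOC1 and -0.40 with LOC3. The LOC3 value and the difference of -0.54 between strains there were within 2 technical SDs of a dim probe. The direction of the brighter probe against LPS held under every scaling tried.

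The 2 exporters thus stood on opposite sides of LPS on the same arrays. The log2 intensity of Abcg1 less that of Abca1, in which the scaling of an array cancels, was higher by 2.23 with LOC1 (4.69-fold) and by 2.05 with LOC3 (4.14-fold). This shows an unequal change of the probes and not which of them changed.

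Apoe encodes the apolipoprotein that macrophages secrete with effluxed cholesterol. Its brighter probe read 152 with LPS, 102 with LOC1 and 97.1 with LOC3. The strain arrays were both below LPS, by -0.42 and -0.50, within 2 technical SDs for a dim probe. The other probe read 25.0 with LPS but with the strains, at 11.1 and 23.1, it was not well above background. The difference with LOC1 is therefore at least 1.56-fold lower, and no fold can be given for LOC3. The LOC1 bound, -0.64 on the log2 scale, is just past 2 technical SDs of a dim probe, which the brighter probe did not reach.

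**Figure D2:**
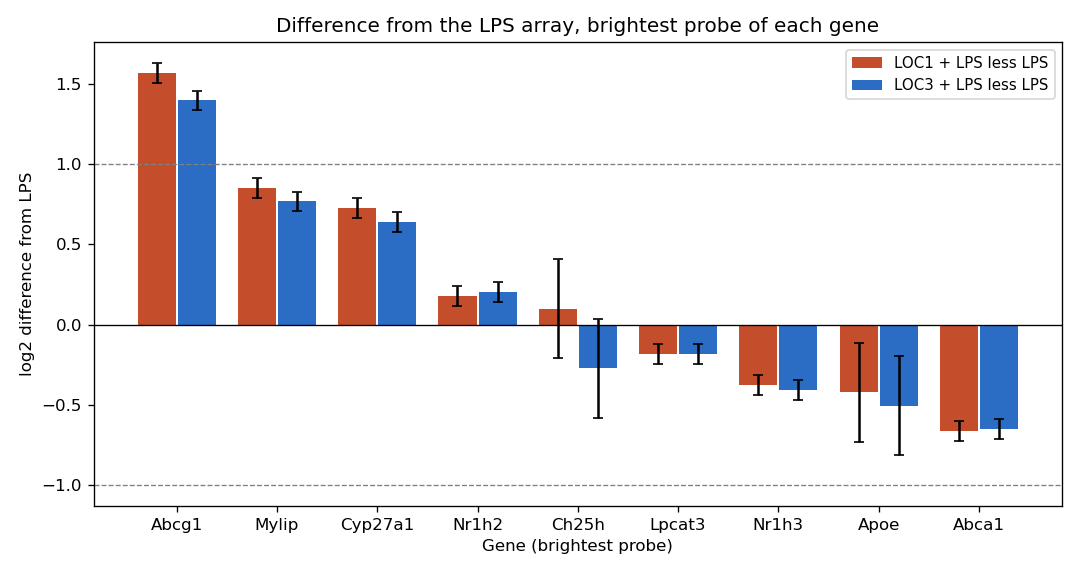
Log2 difference from LPS of the brightest probe of each of the 9 genes with LOC1 and with LOC3, with error bars of 1 technical SD (0.0619 for bright and 0.310 for dim probes) and dashed lines at 2-fold. Abcg1 passes the upper line with both strains (1.57 and 1.40), Abca1 lies at -0.66 and -0.65, and the small LOC1 value of Lpcat3 turns to 0.0022 under median scaling.

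Mylip encodes a ubiquitin ligase that limits lipoprotein uptake and is a well-known LXR target. Its probe gave 1064 with LPS, 1735 with LOC1 and 1647 with LOC3. Both strains were above LPS and under 2-fold, at log2 differences of 0.85 (1.80-fold) and 0.77 (1.70-fold). Under median scaling the LOC1 value was 1.04, past 2-fold. Lpcat3 encodes the enzyme that puts polyunsaturated chains into phospholipids. Its brighter probe read 9423, 7493 and 7547 in the order LPS, LOC1 and LOC3. It was slightly below LPS with both strains, by -0.19 and -0.18, and its second probe lay at -0.22 and -0.26, but with LOC1 the brighter probe moved to 0.0022 under median scaling, so its side of LPS is not settled.

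Of the receptors, Nr1h3 encodes LXRα, which is high in macrophages and a target of itself in human cells, and Nr1h2 encodes the broadly expressed LXRβ. The brighter Nr1h3 probe (chr2:91024250-91024309) read 563 with LPS, 392 with LOC1 and 386 with LOC3. Both strain arrays were lower, by -0.38 and -0.41, and the second probe, at 168, 108 and 104, gave -0.49 and -0.56. These last values are within 2 technical SDs of a dim probe. The 2 probes thus lay on the same side of LPS with both strains, and on the brighter probe that side held under every scaling tried. The brightest Nr1h2 probe (chr7:51805013-51805072) read 5965, 6109 and 6236 in the same order. It was above LPS by 0.18 and 0.20, and its second probe by 0.08 and 0.13. The third Nr1h2 probe, at 5.35, 3.19 and 4.30, was not well above background on any array and gives no difference.

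Of the enzymes, Cyp27a1, a mitochondrial enzyme that hydroxylates the side chain of cholesterol, read 175 with LPS, 262 with LOC1 and 248 with LOC3. Both strains were above LPS, by 0.73 (1.66-fold) and 0.64 (1.56-fold). Ch25h, which hydroxylates cholesterol to an antiviral oxysterol, was dim on every array, at 43.4 with LPS, 42.1 with LOC1 and 32.7 with LOC3 (chr19:34548418-34548477). Its differences of 0.10 and -0.27 had opposite signs and were both smaller than the technical SD of a dim probe.

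All 9 genes passed the filter on low signals. Their median difference was 0.10 with LOC1 and -0.18 with LOC3, beside 0.03 and 0.07 over all genes, and these medians hide the spread from -0.66 to 1.57 and from -0.65 to 1.40. Differences beyond 2 technical SDs were found for 7 of 9 genes with each strain, where 52.9% of all genes were in each comparison. On their brightest probes, Ch25h and Apoe were the exceptions with both strains. LOC1 and LOC3 differed by 0.08 in the median, beside -0.02 over all genes. The largest difference in size between the strains was that of Ch25h, 0.37, which is within 2 technical SDs of a dim probe. At least 2-fold apart between the strains were 0 of the 9 genes, and of all genes 2.63% (0.8% with LOC1 higher and 1.83% with LOC1 lower).

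Against unchallenged macrophages, the authors deposited log2 ratios only where an array differed 2-fold from that reference, and blank cells were rebuilt from the intensities. The array of unchallenged macrophages itself is not analysed here. The deposited ratios listed 6 of the 9 genes and 7 of the 15 probes, and Nr1h2, Lpcat3 and Cyp27a1 in none of the 3 columns. Under LPS alone 2 of the 15 probes were on the higher side of the reference and 1 on the lower side, and under either strain 4 and 3. Over all probes, the shares listed as higher and lower were 7.08% and 6.31% with LPS, 7.96% and 8.52% with LOC1, and 8.02% and 8.88% with LOC3.

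Nr1h3 was higher than in unchallenged cells in all 3 conditions, with log2 ratios of 2.04 with LPS (4.11-fold), 1.67 with LOC1 and 1.64 with LOC3. Both strain arrays lay below LPS alone and stayed over 2-fold above the reference. Ch25h was listed as higher at 3.82, 3.92 and 3.55, but its implied unchallenged intensity of 3.08 was under the lowest intensity well above background on the LPS array, 16.3. Raised to that floor, the ratios are 2.66-fold, 2.85-fold and 2.21-fold. The floor of the unchallenged array itself is not known, so these are not strict bounds. Ch25h was thus listed above the unchallenged level in all 3 conditions by an amount that is not known.

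Abcg1 was close to the unchallenged level with LPS alone, at a rebuilt ratio of 0.15 (1.11-fold). With LOC1 the deposited ratio was 1.72 (3.29-fold) and with LOC3 1.55 (2.93-fold), so that both arrays with lactobacilli were past 2-fold and the array of LPS alone was under it. Mylip followed a like order, with a rebuilt 0.46 for LPS and deposited ratios of 1.31 (2.48-fold) and 1.23 (2.34-fold). Abca1 ran the other way, from a rebuilt -0.53 with LPS to -1.19 (2.29-fold lower) and -1.18 (2.27-fold lower). The brighter Apoe probe lay at a rebuilt -0.89 with LPS, and at -1.31 and -1.39 with the strains. Its dimmer probe was listed at -1.45 with LPS, and with LOC1 it was at least 4.26-fold below the reference. With LOC3 that probe was listed at -1.42, close to LPS, from a signal not well above background.

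**Figure D3:**
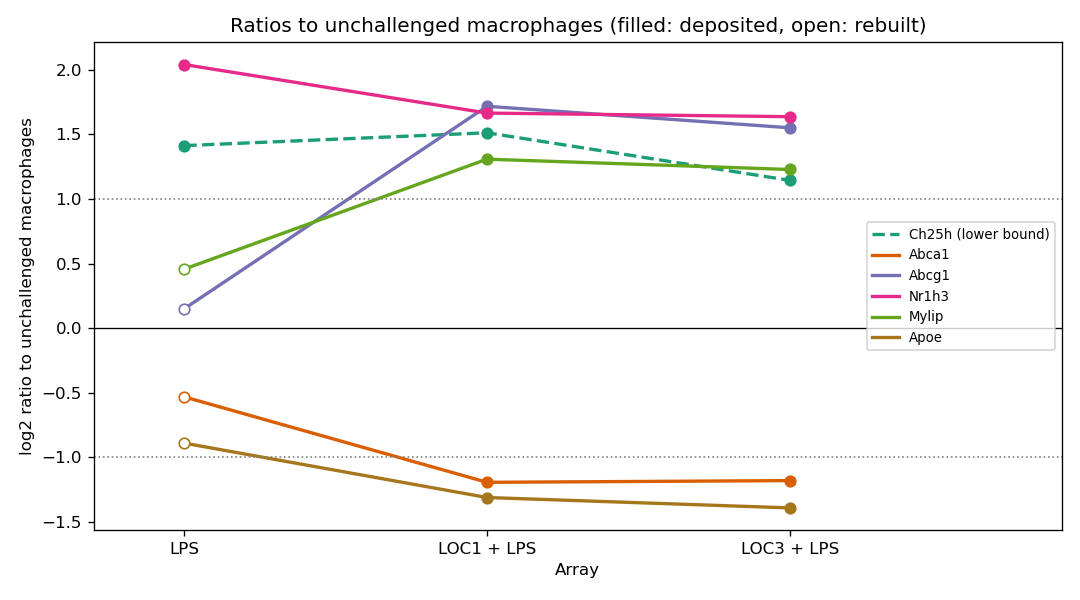
Log2 ratio to unchallenged macrophages of the brightest probe of the 6 genes listed in the deposited ratios, on the 3 arrays, with filled symbols for deposited values, open ones for values rebuilt under 2-fold, and dotted lines at 2-fold. Ch25h, marked as a lower bound, is drawn with its unchallenged signal raised to the lowest intensity well above background on the LPS array. Abcg1 and Mylip lie inside the 2-fold lines with LPS alone and above the upper line with lactobacilli (1.72 and 1.55, 1.31 and 1.23), and Abca1 and Apoe lie inside them with LPS alone and below the lower line with lactobacilli.

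The rest of the sterol system was read from 4 lists of 55 genes. With LOC1 2.71% of all genes passed 2-fold on the higher side and 3.5% on the lower side, and with LOC3 3.19% and 2.92%. Between the strains 2.63% did so in either direction. Against these shares, counts as small as those below say little about a list as a group. Of the other LXR targets 13 of 17 were tested with LOC1 and 12 with LOC3, and 0 passed 2-fold in either direction with either strain. Their medians were 0.10 and -0.05. Srebf1, the regulator of fatty acid synthesis genes, read 4792 with LPS, 4717 with LOC1 and 4833 with LOC3, a difference of 0.12 and 0.15. Apoc1, a small apolipoprotein encoded beside Apoe, was dim at 34.7, 60.2 and 18.9, not well above background with LOC3. With that signal raised to the lowest intensity well above background, Apoc1 was 3.05-fold higher with LOC1 than with LOC3. It was the only list gene past 2-fold between the strains.

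Of the enzymes and receptors of oxysterols 8 of 11 were tested with each strain, 0 rose and 1 fell, with medians of -0.18 and -0.17. The gene that fell was Gpr183, the receptor that guides immune cells along oxysterols derived from the product of Ch25h. Its intensity of 58.3 on the LPS array stood against 11.1 for LOC1 and 10.6 for LOC3, neither of them well above background. The LOC1 array was thus at least 3.63-fold lower, and for LOC3 the bound was at least 2.67-fold. Cyp7b1, which hydroxylates that product further to a ligand of Gpr183, was not well above background on any array.

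The partners and cofactors of LXR gave 9 tested of 10 and 0 past 2-fold with either strain, with medians of 0.30 and 0.30. Rxra, the retinoid partner, read 1136, 1285 and 1170 in the order LPS, LOC1 and LOC3, and lay at 0.32 and 0.18.

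In the list of cholesterol uptake, export and esterification 15 of 17 genes were tested, with medians of -0.18 and -0.23. With LOC1 0 rose and 2 fell, and with LOC3 0 rose and 1 fell. Lrp1, a large endocytic receptor for lipoproteins, fell with both strains, from 4242 with LPS to 1636 and 1778, by 1.23 and 1.12 on the log2 scale. Its probes disagreed in size, since the second probe lay at -2.24 and -1.69 and the dimmest, at -0.50 and -0.05, did not pass 2-fold. Stard4, a carrier of cholesterol between membranes, read 1472, 637 and 751 and fell with LOC1 by 1.06, while its LOC3 value was -0.83 and its second probe lay at -0.62 and -0.63.

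Soat1, which esterifies cholesterol for storage, read 2959, 3844 and 3841 and lay at 0.52 and 0.51. Npc1, which exports cholesterol from lysosomes, was at 0.16 and 0.02.

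**Figure D4:**
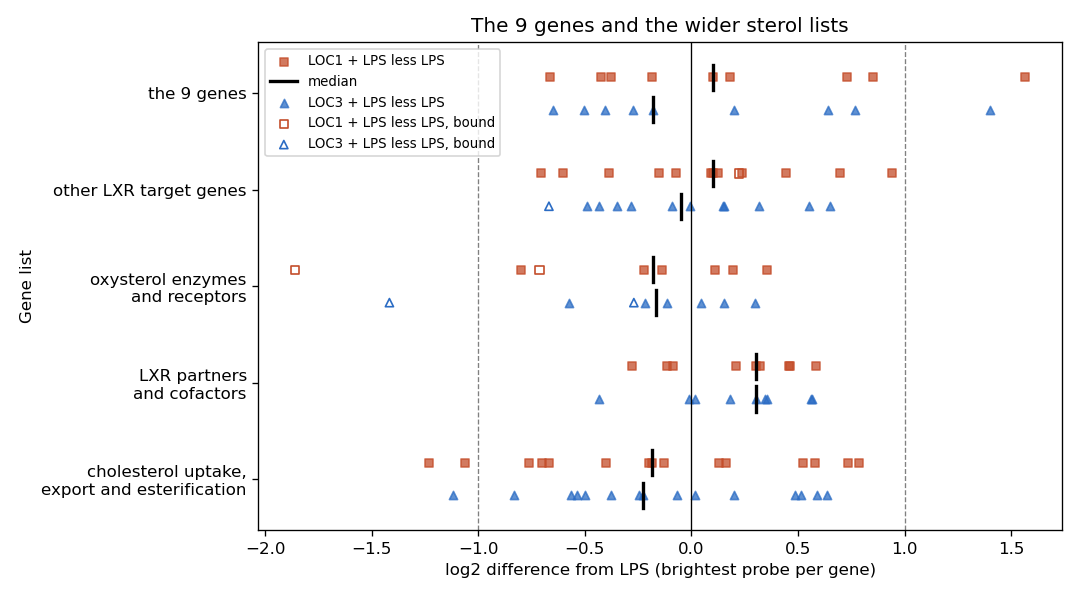
Log2 difference from LPS of the brightest probe of each tested gene, for the 9 genes and the 4 other lists, with LOC1 (squares) and LOC3 (triangles). Black bars are medians, open symbols are bounds from signals not well above background and dashed lines mark 2-fold. Past 2-fold stand Abcg1 on the higher side, and Gpr183, Lrp1 and, with LOC1, Stard4 on the lower side.

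The genes whose 2 differences from LPS lay nearest to those of Abca1 included, out of 17405 genes detected well above background on every array, Cabp5, Gcm1, Kif4 and Gm10638. Their Euclidean distances over the 2 differences were 0.0073 to 0.018 on the log2 scale, and 39 genes lay within 0.05. For Ch25h the nearest were Fcho1 at 0.0045 and Vegfb at 0.014, with BX514619 and 2 probes named only by position, and 21 genes lay within 0.05. These distances rest on 3 arrays and are a description.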

How the data were processed

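RNA (200 ng per array) was hybridised to one-colour Agilent mouse arrays, 1 per condition. The authors deposited spot intensity after background subtraction and detrending in Feature Extraction (12.0.3.1 in the headers, 10.7.3.1 in the methods), with no scaling between arrays. The deposited log2 ratios were made by the authors in GeneSpring 13.1 against 1 reference, with values under 2-fold left blank. The submitters' processing notes name limma and R 3.2.5.

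Spots of a probe were averaged without outlier spots, and the 75th percentile over probes was subtracted on the log2 scale. Genes well above background on at least 1 array of a pair were compared, with dim signals raised to the lowest intensity well above background (16.3, 14.5 and 19.8) and a threshold of 2-fold. A fold given as at least a value rests on this floor and leaves out spot noise. It is not a strict bound, since some brighter signals, such as 23.1 for Apoe with LOC3, were also not well above background. Technical SDs came from probes printed repeatedly, split at -1 relative to the percentile. These were 270 bright probes and, of 30 dim ones, 10 to 12 per array. The other dim probes had too few spots well above background. Python 3.11.15, pandas 2.3.3 and limma 3.58.1 (normexp, offset 50) were used, and the procedure was tested on simulated data. The named list genes were those past 2-fold and 7 fixed ones. Some of the genes, markers and sequences chosen are not reported here. The 9 genes and all lists were chosen with earlier results of these data known. With so few arrays, precision is limited.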

Additional observations from a re-analysis of the deposited data

Results flagged for a closer look

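Ch25h stood out because its difference from LPS had opposite signs with the strains, a log2 value of 0.0988 for LOC1 and of -0.272 for LOC3. The difference between the strains was not tested, since each condition is 1 array. Both values are smaller than the technical SD of a dim probe, 0.310.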

How the results depend on the processing

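No paired analysis was possible because each condition is 1 array, and for the same reason no array could be left out. Abcg1 was past 2-fold with both strains in all 9 alternatives that gave it a value, from 1.47 to 1.75 with LOC1 and from 1.26 to 1.56 with LOC3, and Abca1 ranged from -0.80 to -0.47 and from -0.73 to -0.49. The deposited ratios gave Abcg1 no value, since its LPS cell is blank. Of 255 values of single genes under the alternatives, 210 moved by less than the technical SD and 45 by more. Of the 168 against LPS, 2 changed sign: Lpcat3 with LOC1 under median scaling (0.0022), and Apoe with LOC3 in the deposited ratios (0.03, from its dimmer probe). Of the 87 between strains, 7 did, in Abca1, Nr1h2 and Lpcat3.

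A 3-fold threshold left 0 of the 9 genes with either strain, and 194 higher and 211 lower of all genes with LOC1, 260 and 134 with LOC3, and 69 and 213 between strains. Median scaling moved the median of all genes to 0.22 with LOC1 and 0.23 with LOC3, and that of the 9 genes to 0.29 and -0.019. It put 2 of the 9 past 2-fold with LOC1, Mylip beside Abcg1, and gave 890 higher and 465 lower of all genes with LOC1 and 376 lower with LOC3. The percentile over probes detected on all arrays gave medians of 0.025 and -0.26. Normexp gave a median of -0.011 with LOC3, and 223 higher and 200 lower with LOC1, 271 and 146 with LOC3, and 40 and 112 between strains. The deposited ratios, which hold few of the 9 genes in both columns, gave medians of -0.38 and -0.27. They put 1 of the 9 past 2-fold with LOC1, Apoe by a dimmer probe not well above background there, and 0 with LOC3. They hold 4895 genes with LOC1, 4912 with LOC3 and 6338 between strains, against 20018, 19789 and 19381 otherwise, so their counts are not shares of the same genes: 316 higher and 457 lower with LOC1, 309 higher with LOC3, and 212 lower between strains. Without filter and floor, over 36864 genes in each comparison, the counts were 1535 and 2261, 1748 and 1968, and 1179 and 1639. With both arrays well above background they were 462 lower with LOC1, 332 and 378 with LOC3, and 37 and 69 between strains. The floor took the Ch25h ratio of LPS to unchallenged cells from 3.82 to 1.41. The cause of these changes was not tested. The percentile over all spots, chosen after seeing the data as were the rebuilt blank cells, kept each of these counts within 1.5 times. Signals near background, as for Ch25h, Apoe, Gpr183 and Apoc1, limit what can be said of those genes.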
